A study of Homo sapiens with 24 samples.

Results

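The genes described here encode the p38 mitogen-activated protein kinase (MAPK) arm downstream of MAP2K6 and the dual-specificity phosphatases that act on MAPKs. The list held 9 genes, MAPKAPK2, MAPKAPK3, MAPK14, MAP2K6, DUSP1, DUSP4, DUSP5, DUSP6 and DUSP10, and every array probe set annotated to 1 of these symbols was read. A probe set is a group of array probes summarised into 1 signal. This gave 8 probe sets, 1 for each of 8 genes, among 21214 probe sets with at least 1 gene symbol and 33297 in all. MAPK14, which encodes p38 alpha, was not analysed here.

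The samples came from GM10861 and GM10855, HapMap lymphoblastoid lines of human B cells immortalised by Epstein-Barr virus. In each line, 3 arrays were run on cells given calcitriol and estrogen together for 36 h, 3 on cells given calcitriol alone for 36 h, 3 on cells given estrogen alone for 36 h, and 3 on untreated cells at 0 h, so 24 arrays fell into 8 groups. Calcitriol is the hormonal form of vitamin D and the ligand of the vitamin D receptor. Doses, the kind of estrogen and the vehicle were not stated in the sources used. Because the untreated cells were taken at 0 h, an agent and 36 h of culture cannot be told apart in a comparison with them. The 36 h groups can be compared with each other free of that difference. Each line comes from 1 donor, so the lines stand for no wider group. Whether the 3 arrays per group stand for separate cultures is not stated, so the p-values measure only the spread between arrays, which may be technical.

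In this pathway, stress and cytokine signals reach MAP2K6, which phosphorylates and activates p38 kinases. Active p38 phosphorylates MAPKAPK2 (also called MK2) and its relative MAPKAPK3, and MAPKAPK2 in turn acts on RNA-binding proteins such as tristetraprolin (ZFP36), which govern the decay of inflammatory mRNAs with AU-rich elements. DUSP phosphatases remove the activating phosphates from MAPKs, and several are themselves induced by the pathways they restrain.

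The signals are log2 values, so a difference of 1 is a doubling, and RMA (robust multi-array average) made their distributions alike across arrays. Array medians lay between 5.38 and 5.50. Within groups, the Pearson correlation between arrays ran from 0.985 to 0.993, and no pair of arrays held identical values. Markers of B cells averaged 8.09 to 8.73 per array, against 4.23 to 4.84 for T cell, 3.34 to 3.71 for NK cell, 4.15 to 4.53 for monocyte and 4.85 to 5.04 for fibroblast markers. Signals of different probe sets are not strictly comparable, so these are list averages only. The known vitamin D target CAMP, an antimicrobial peptide gene, was 5.50-fold higher with calcitriol than in untreated cells (limma, Benjamini-Hochberg adjusted p = 1.21e-13).

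The sequence shown here is 1 promoter of DUSP10, the gene of the set whose signal followed that of MAPKAPK2 most closely. The table held 2 promoters of DUSP10, and the one shown is the one with half-sites of the kind described next, of which the other held none. The 250 bases before its start site were taken from RefSeq on GRCh38.p14, chr1:221736901-221737150, minus strand, written 5′ to 3′ along the gene.
DUSP10 promoter: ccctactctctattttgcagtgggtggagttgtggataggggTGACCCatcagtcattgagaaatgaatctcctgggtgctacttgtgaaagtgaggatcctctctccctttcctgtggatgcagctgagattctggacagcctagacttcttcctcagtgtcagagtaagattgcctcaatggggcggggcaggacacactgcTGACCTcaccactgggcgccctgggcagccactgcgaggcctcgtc
Capitals mark 2 hexamer half-sites of the kind bound by the vitamin D receptor and other nuclear receptors, read on the opposite strand as AGGTCA and GGGTCA, 46 and 208 bases before the start. The search covered AGGTCA or AGTTCA or GGGTCA or GGTTCA on both strands. At least 1 such hexamer was found in 33.8% of 35116 RefSeq promoters of this length, so the match is only a description. Whether the receptor binds there was not tested. Entries were found for 5 of the measured genes, 8 promoters in all. MAPKAPK2, DUSP4 and DUSP5 had no entry, so their promoters were not searched. Of the 8 promoters, 2 held a half-site, 1 of DUSP10 and 1 of MAPKAPK3, while the other promoter of each gene held none. No entry held a pair of half-sites in the same direction 3 bases apart, the arrangement preferred by the vitamin D receptor, and 0.0655% of all promoters did. The CRE motif TGACGTCA, the palindrome bound by CREB, was found in 1 of the 8 promoters, that of DUSP1, and in 1.65% of all promoters.

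MAPKAPK2, the kinase that carries the p38 signal to RNA-binding proteins, was the 1 gene of the 8 called with calcitriol. It rose in cells given calcitriol, with or without estrogen. The rise was 1.43-fold against untreated cells and 1.37-fold when calcitriol was added to estrogen. In GM10861 the MAPKAPK2 signal was 7.49, 7.31 and 7.43 with calcitriol, against 7.02, 7.28 and 7.04 untreated. In GM10855 it was 8.27, 8.40 and 8.54 with calcitriol, against 7.85, 7.46 and 7.67 untreated. The calcitriol arrays lay above the untreated arrays in both lines with no overlap, although in GM10861 the nearest arrays were close. The means were 7.41 ± 0.09 with calcitriol and 7.11 ± 0.15 untreated in GM10861, and 8.40 ± 0.13 with calcitriol and 7.66 ± 0.20 untreated in GM10855 (SD, n = 3 each).

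**Figure D1:**
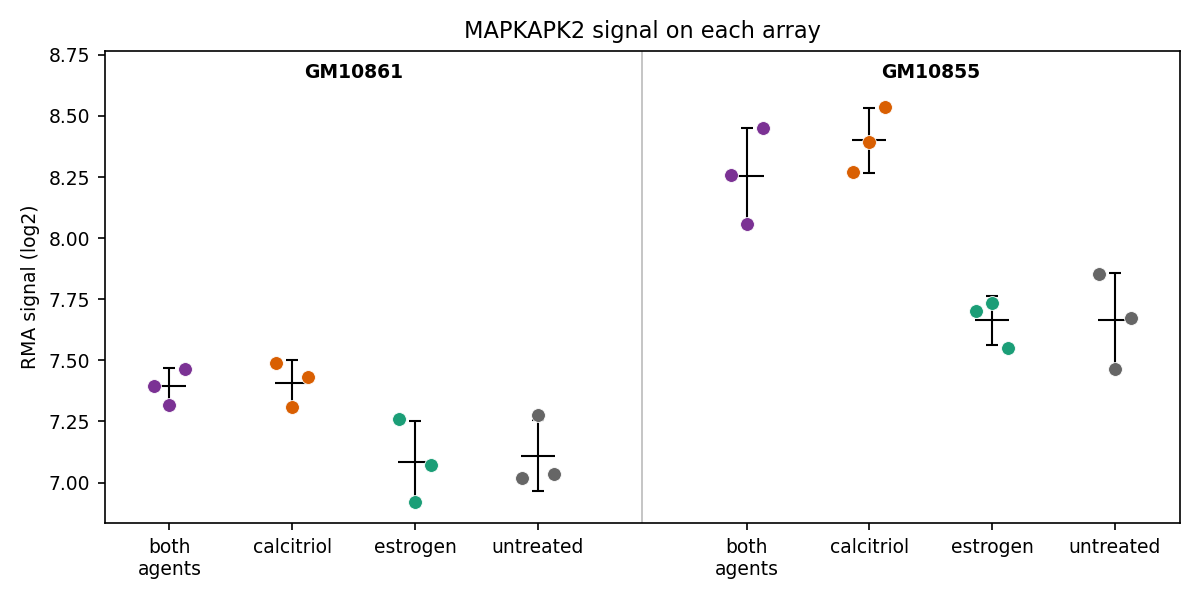
MAPKAPK2 signal (log2, vertical axis) on each of the 24 arrays by agent and line, with black bars for the mean and SD of 3 arrays. In each line the arrays with calcitriol or both agents sit above the estrogen and untreated arrays, and under each agent the GM10861 arrays sit lower than the GM10855 arrays.

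The groups given estrogen as well showed the same arrangement. In GM10861 the MAPKAPK2 signal was 7.40, 7.32 and 7.47 with both agents, against 7.26, 6.92 and 7.07 with estrogen alone. In GM10855 it was 8.26, 8.06 and 8.45 with both agents, against 7.70, 7.74 and 7.55 with estrogen alone. Again no array with both agents overlapped an estrogen array of its line. This comparison shares no array with that of calcitriol against untreated cells, and all its arrays are from 36 h.

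Averaged over the lines, the change of MAPKAPK2 was 0.52 ± 0.08 (SE, 6 arrays against 6) on the log2 scale for calcitriol against untreated cells (limma, adjusted p = 7.36e-04). For calcitriol added to estrogen it was 0.45 ± 0.08 (SE; limma, adjusted p = 0.00360). In both comparisons, 6 of 6 arrays with calcitriol were above the mean of their line's comparison group. Both agents against untreated cells gave 0.44 (limma, adjusted p = 0.00405), a comparison that shares the untreated arrays with the first and the arrays with both agents with the second. These calls made 1 of 8 genes against 0.679% of all probe sets called for calcitriol against untreated cells. For both agents against untreated cells they made 1 of 8 against 1.15%, and for calcitriol added to estrogen 1 of 8 against 0.754%. By p-value, MAPKAPK2 ranked 43 among the 144 probe sets called for calcitriol against untreated cells and 65 among the 160 called for calcitriol added to estrogen.

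For estrogen against untreated cells, the log2 change of MAPKAPK2 was -0.01, with a 95% interval of -0.18 to 0.15. Estrogen added to calcitriol gave -0.08, with an interval of -0.25 to 0.09. The interaction of the agents, which asks whether the change with both departs from the sum of the single changes, was -0.07, with an interval of -0.30 to 0.17 (limma, adjusted p = 0.992). None of these was called.

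Within the lines, the calcitriol change of MAPKAPK2 was 0.30 in GM10861 (95% interval 0.06 to 0.53; limma, adjusted p = 0.737) and 0.74 in GM10855 (interval 0.50 to 0.97; adjusted p = 6.56e-04). The difference between the lines, GM10861 minus GM10855, was -0.44 ± 0.16 (SE; limma, unadjusted p = 0.0121, adjusted p = 0.677). For calcitriol added to estrogen the changes were 0.31 in GM10861 (adjusted p = 0.779) and 0.59 in GM10855 (adjusted p = 0.00861), and the difference was -0.28 (limma, adjusted p = 0.792). So the call passed in GM10855 and not in GM10861, but a difference in response between the lines did not pass the test. Such a difference was called for 0.00943% of all probe sets with calcitriol against untreated cells and for 0.00471% with calcitriol added to estrogen, which are counts of 2 and 1 that ran from 0 to 10 and from 1 to 4 under other settings and with arrays left out. The GM10855 call for calcitriol added to estrogen was lost without the third estrogen array (limma, adjusted p = 0.0631), without the third array with both agents (adjusted p = 0.0745), or with only the arrays compared in the fit (adjusted p = 0.126). The calls within GM10855 were 0.509% of all probe sets for calcitriol against untreated cells and 0.632% for calcitriol added to estrogen. Within GM10861 they were 0.104% and 0.127%.

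Some B cell markers rose with calcitriol, as MAPKAPK2 did. Of 7 measured B cell markers out of 8 listed, 3 were called higher with calcitriol against untreated cells, beside 0.679% of all probe sets, with a list median of 0.16, beside -0.0011 over all probe sets. CD79A, the signalling chain of the B cell receptor, was higher by 0.85 on the log2 scale (limma, adjusted p = 4.82e-09), and CR2, the complement receptor that Epstein-Barr virus uses, by 0.41 (adjusted p = 5.51e-04). PAX5, the transcription factor of B cell identity, was higher by 0.26 (adjusted p = 0.0199). The remaining markers were not called, although all 7 changes were above 0. For calcitriol added to estrogen, 3 of 7 were called higher, beside 0.754% of all probe sets. There 6 changes were above 0, and the range was -0.06 to 0.78. For both agents against untreated cells, 3 were called higher, beside 1.15%, and 5 changes were above 0, the lowest at -0.08. The mean of the list was 8.65 with calcitriol and 8.47 untreated in GM10861, and 8.59 with calcitriol and 8.22 untreated in GM10855. None of the T cell, NK cell, monocyte or fibroblast markers was called with any agent. The part of the marker shift in the MAPKAPK2 result was not tested, and more cells of a kind and more RNA per cell cannot be told apart in bulk samples.

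MAPKAPK3, the kinase closest to MAPKAPK2, was not called with any agent. In GM10861 its signal was 6.48, 6.22 and 6.11 with calcitriol, against 6.32, 6.29 and 6.28 untreated, so 1 calcitriol array was above all untreated arrays and the other 2 below them. The GM10855 signal was 6.33, 6.40 and 6.44 with calcitriol, against 6.42, 6.30 and 6.10 untreated, and the groups overlapped. The log2 change over both lines was 0.05 (95% interval -0.10 to 0.19) for calcitriol against untreated cells and -0.07 (interval -0.22 to 0.07) for calcitriol added to estrogen. These intervals leave out a change of the size seen for MAPKAPK2. In GM10861 alone, the estrogen arrays at 6.49, 6.51 and 6.44 lay above the untreated arrays without overlap, but the change over both lines was 0.10 (interval -0.05 to 0.25; limma, adjusted p = 0.974).

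MAP2K6, the kinase that activates p38, was not called with any agent, although its calcitriol and untreated arrays stood apart in both lines. In GM10861 its signal was 6.09, 6.19 and 6.15 with calcitriol, against 6.36, 6.35 and 6.24 untreated. The GM10855 signal was 7.84, 7.61 and 7.69 with calcitriol, against 7.85, 7.92 and 7.96 untreated. All calcitriol arrays lay under all untreated arrays of their line, and 1.30% of all probe sets kept their groups apart the same way in both lines. The log2 change was -0.18 ± 0.07 (SE; limma, unadjusted p = 0.0102, adjusted p = 0.457).

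With estrogen present, the MAP2K6 arrays kept apart in GM10861 and overlapped in GM10855. In GM10861 the signal was 6.28, 6.13 and 5.91 with both agents, against 6.34, 6.50 and 6.40 with estrogen. In GM10855 it was 7.92, 7.64 and 7.69 with both agents, against 7.93, 7.77 and 7.86 with estrogen, where 1 array with both agents lay among the estrogen arrays. The log2 change of MAP2K6 was -0.21 ± 0.07 (SE; limma, unadjusted p = 0.00424, adjusted p = 0.263). Estrogen against untreated cells gave 0.02 (95% interval -0.11 to 0.16).

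**Figure D2:**
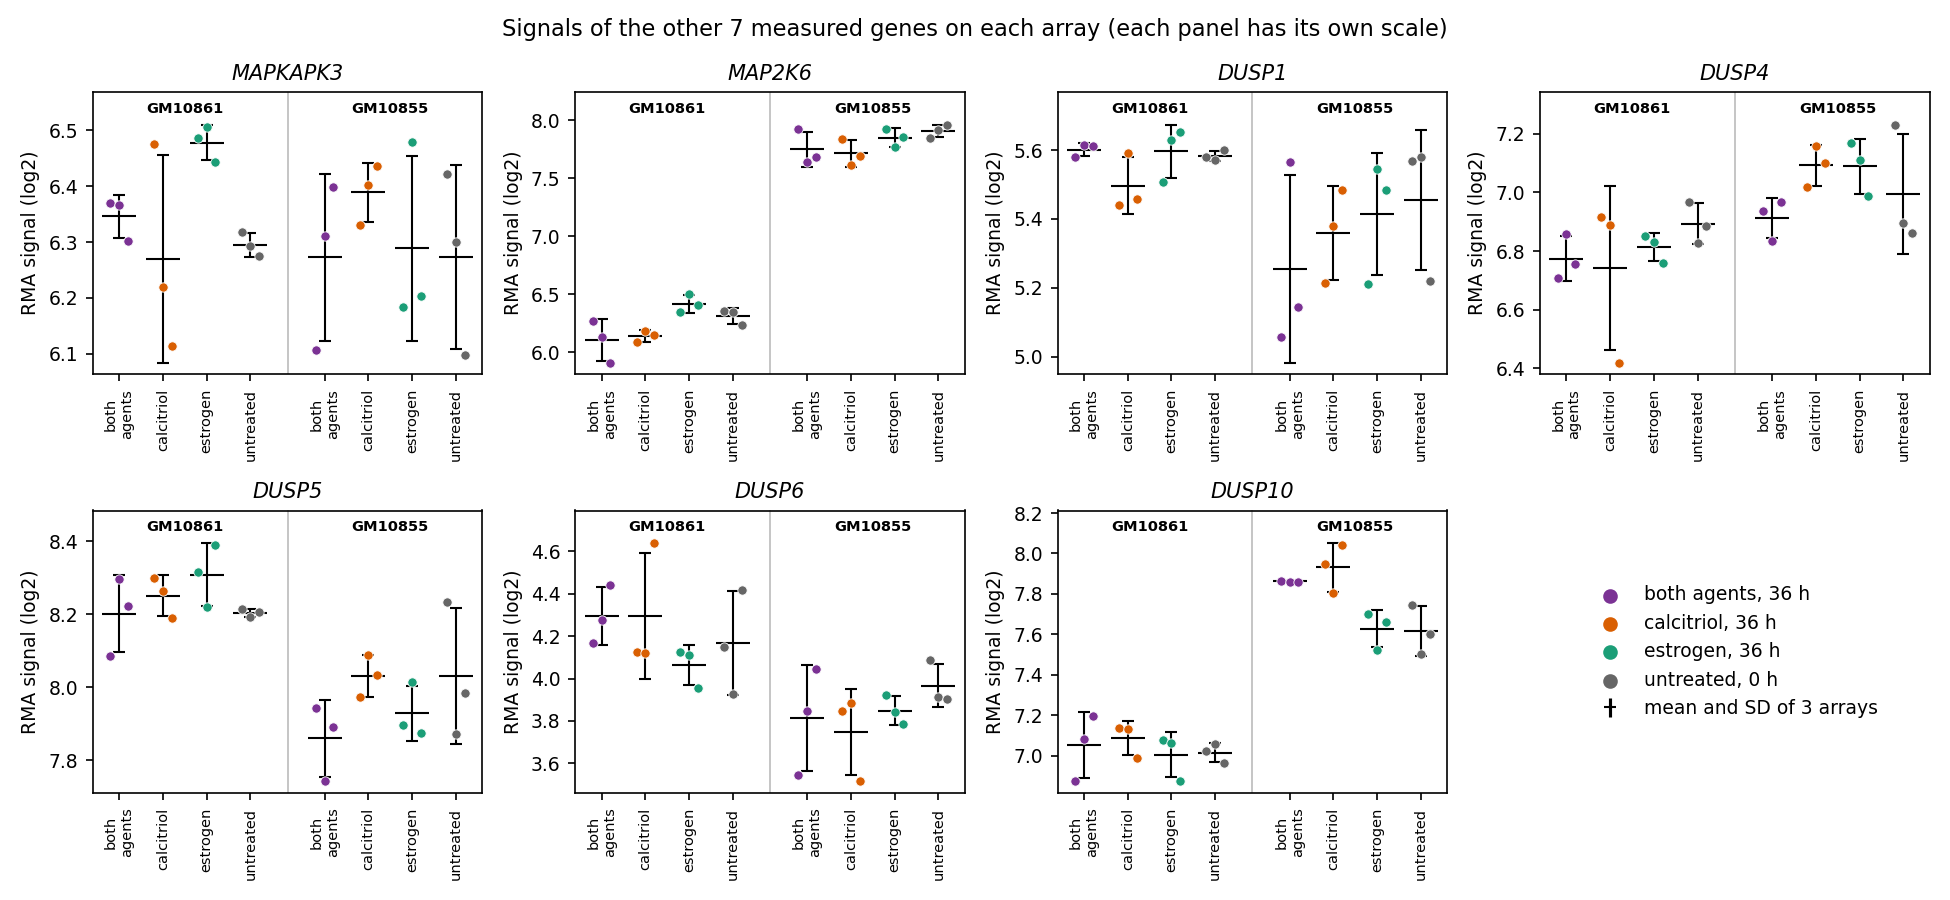
Signals (log2, vertical axis, each panel on its own scale) of the other 7 measured genes on the 24 arrays, by agent and line, with the mean and SD of 3 arrays as black bars. MAP2K6 and DUSP10 are separated by line without overlap, with GM10861 lower.

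DUSP10, a phosphatase of p38 and JNK, was not called with any agent, although its calcitriol and untreated arrays stood apart in GM10855. In GM10855 it was 7.95, 7.80 and 8.04 with calcitriol, against 7.75, 7.50 and 7.60 untreated, without overlap. In GM10861 it was 7.14, 7.13 and 6.99 with calcitriol, against 7.02, 7.06 and 6.97 untreated, with 1 calcitriol array among the untreated ones. The log2 change over both lines was 0.19 ± 0.06 (SE; limma, unadjusted p = 0.00625, adjusted p = 0.345), made of 0.07 in GM10861 (adjusted p = 0.964) and 0.31 in GM10855 (adjusted p = 0.186). The difference between the lines was -0.24 (95% interval -0.51 to 0.02).

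For DUSP10 with both agents against estrogen alone, the GM10855 arrays were 7.87, 7.86 and 7.86 with both agents, against 7.70, 7.52 and 7.66 with estrogen, again without overlap. In GM10861 they were 6.87, 7.08 and 7.20 with both agents, against 7.08, 7.06 and 6.88 with estrogen, with full overlap. The log2 change over both lines was 0.14 ± 0.06 (SE; limma, unadjusted p = 0.0387, adjusted p = 0.590).

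DUSP1, a nuclear phosphatase and immediate early gene that acts on p38 and JNK, was not called with any agent. Its signal ran between 5.44 and 5.59 with calcitriol and between 5.57 and 5.60 untreated in GM10861, and between 5.21 and 5.48 with calcitriol and between 5.22 and 5.58 untreated in GM10855. The log2 change over both lines was -0.09 (95% interval -0.26 to 0.08) for calcitriol against untreated cells and -0.08 (interval -0.25 to 0.09) for calcitriol added to estrogen. The groups overlapped in both lines. Over all arrays the DUSP1 signal lay between 5.06 and 5.65, much as that of the fibroblast marker COL3A1, between 5.22 and 5.59. With no detection call in the data, the DUSP1 signal may be near background.

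DUSP4, a nuclear phosphatase of ERK and other MAPKs, had log2 changes of -0.03 (95% interval -0.19 to 0.13) for calcitriol against untreated cells and -0.11 (interval -0.27 to 0.05) for calcitriol added to estrogen. In GM10855 its arrays with both agents, at 6.94, 6.84 and 6.97, lay under those with estrogen alone, at 7.17, 7.11 and 6.99. In GM10861 they were 6.71, 6.86 and 6.76 with both agents and 6.85, 6.83 and 6.76 with estrogen, and overlapped. A low calcitriol array of 6.42 in GM10861 gave that group an SD of 0.28, the widest of the 8 groups for DUSP4.

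DUSP5, a nuclear phosphatase specific for ERK, had log2 changes of 0.02 (95% interval -0.10 to 0.15) for calcitriol against untreated cells and -0.09 (interval -0.21 to 0.04) for calcitriol added to estrogen. In GM10855 its signal was 7.94, 7.74 and 7.89 with both agents, against 7.97, 8.09 and 8.03 with calcitriol alone, without overlap. In GM10861 it was 8.09, 8.30 and 8.22 with both agents, against 8.30, 8.27 and 8.19 with calcitriol alone, and overlapped. Estrogen added to calcitriol gave -0.11 over both lines (interval -0.24 to 0.02; limma, adjusted p = 0.659).

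DUSP6, a cytoplasmic phosphatase of ERK, had the lowest signal of the set, between 3.52 and 4.64, and 13 of its 24 values lay below the lower quartile of their arrays. No detection call came with the data, so a signal this low cannot be separated from background. Its log2 changes were -0.04 (95% interval -0.25 to 0.16) for calcitriol against untreated cells and 0.10 (interval -0.11 to 0.31) for calcitriol added to estrogen. In GM10855 the calcitriol arrays at 3.85, 3.88 and 3.52 lay under the untreated arrays at 4.09, 3.91 and 3.90, while in GM10861 the groups overlapped. In GM10861 the arrays with both agents, at 4.17, 4.28 and 4.44, lay above the estrogen arrays at 4.12, 4.11 and 3.96, and in GM10855 those groups overlapped.

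Across the set, estrogen against untreated cells gave 0 calls of 8 (limma), beside 0% of all probe sets, and 0 of 8 at an unadjusted p below 0.05, beside 5.17% of all probe sets. Estrogen added to calcitriol likewise gave 0 calls and 0 at an unadjusted p below 0.05, beside 0% and 8.35%, and the interaction gave 0 and 0, beside 0% and 4.41%. For calcitriol against untreated cells, 3 of 8 genes had an unadjusted p below 0.05, beside 6.55% of all probe sets, namely MAPKAPK2, MAP2K6 and DUSP10. The same 3 genes did so for calcitriol added to estrogen, beside 7.94%. The median log2 change of the 8 genes was -0.0016 for calcitriol against untreated cells, beside -0.0011 over all probe sets, and -0.08 for calcitriol added to estrogen, beside -0.01 over all probe sets.

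Counts of genes whose 3 arrays per group did not overlap can be read beside the same share of all probe sets. For calcitriol against untreated cells there were 2 of 8 in GM10861, beside 14.0%, and 4 of 8 in GM10855, beside 11.0%. MAPKAPK2 and MAP2K6 kept apart the same way in both lines, 2 of 8 beside 1.30%. For calcitriol added to estrogen there were 4 of 8 in GM10861, beside 12.1%, and 3 of 8 in GM10855, beside 12.3%, with MAPKAPK2 the 1 gene in both lines, beside 1.23%. For both agents against untreated cells there were 1 of 8 in GM10861, beside 15.2%, and 2 of 8 in GM10855, beside 15.3%, again with MAPKAPK2 the 1 gene in both lines, beside 1.80%. For estrogen against untreated cells there were 2 in GM10861 (MAPKAPK3 and DUSP5), beside 11.5%, and 0 in GM10855, beside 9.21%, and so 0 in both, beside 0.504%. For estrogen added to calcitriol there were 0 in GM10861, beside 9.07%, and 2 in GM10855 (DUSP4 and DUSP5), beside 17.4%, and so 0 in both, beside 0.754%.

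**Figure D3:**
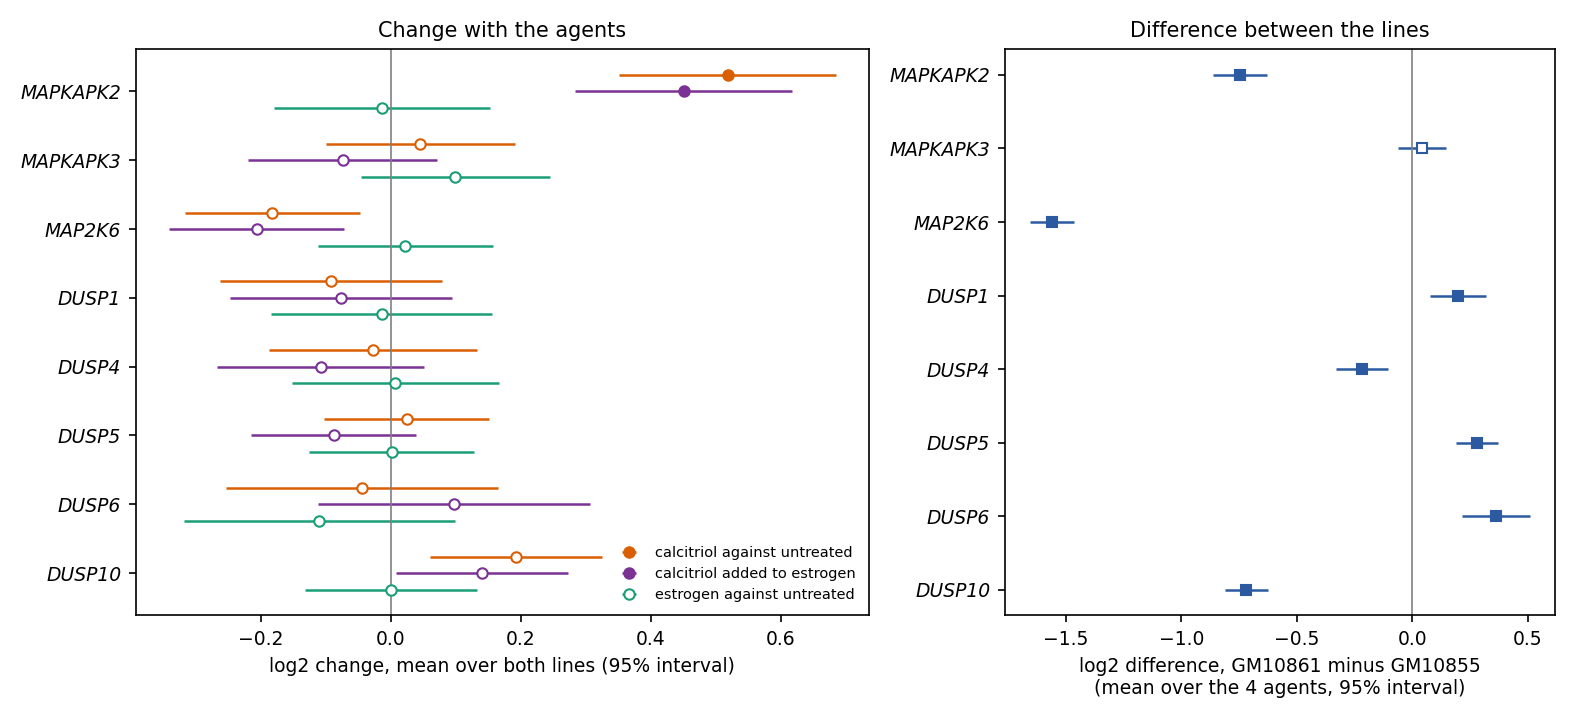
Left, log2 changes with 95% intervals of the 8 genes for calcitriol against untreated cells, calcitriol added to estrogen and estrogen against untreated cells, averaged over both lines, with filled points for called changes. Right, the log2 difference GM10861 minus GM10855. MAPKAPK2 holds the only filled points on the left, and MAPKAPK3 holds the only open point on the right.

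The lines differed more than the agents did. Of the 8 genes, 7 were called between the lines, 3 higher and 4 lower in GM10861, where 41.8% of all probe sets were called, 23.4% higher and 18.4% lower. MAP2K6 showed the largest difference of the set. Its signal averaged over the 4 agents was lower by 1.56 ± 0.05 (SE) on the log2 scale in GM10861, a 2.95-fold difference (limma, adjusted p = 1.44e-18). The 12 GM10861 arrays lay between 5.91 and 6.50 and the 12 GM10855 arrays between 7.61 and 7.96. MAPKAPK2 was lower in GM10861 by 1.68-fold (log2 difference -0.75; limma, adjusted p = 9.99e-11), and DUSP10 by 1.65-fold (log2 difference -0.72; adjusted p = 2.79e-12). MAP2K6 and DUSP10 kept the lines fully apart over 12 arrays each, as did 10.4% of all probe sets. For MAPKAPK2 the highest GM10861 array, 7.49, passed the lowest GM10855 array, 7.46.

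The remaining phosphatases split by direction between the lines. DUSP4 was lower in GM10861 (log2 difference -0.22; limma, adjusted p = 0.00233). DUSP5 (0.28; adjusted p = 1.06e-05), DUSP6 (0.36; adjusted p = 2.17e-04) and DUSP1 (0.20; adjusted p = 0.00803) were higher in GM10861. The DUSP6 difference rests on signals that cannot be separated from background, and the DUSP1 difference on signals that may also be near it. MAPKAPK3 was not called (0.04; 95% interval -0.06 to 0.14). With 1 line on each side, these are differences between 2 lines and not between classes of donors.

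Lists of related pathway genes were read beside the set, and none of their genes was called in any of the 6 agent comparisons. For each listed gene and marker, the probe set with 1 symbol and the highest mean signal was read. The shares of all probe sets also cover dimmer ones and ones with several symbols, so lists and shares are not fully alike. Of all probe sets, 0.679% were called for calcitriol against untreated cells and 0.754% for calcitriol added to estrogen. For both agents against untreated cells the share was 1.15%, and for the remaining agent comparisons 0%. The first list held the other p38 kinases and their activators. Of 17 listed genes 16 were measured, and their median log2 change was -0.0034 for calcitriol against untreated cells, with a range of -0.17 to 0.10, beside a median of -0.0011 over all probe sets. For calcitriol added to estrogen it was 0.03, beside -0.01 over all probe sets. By limma, 0 of 16 were called in each comparison. In each, 1 had an unadjusted p below 0.05, beside 6.55% and 7.94% of all probe sets. MAP3K20, a stress-activated kinase upstream of p38 and JNK, had a log2 change of -0.17 for calcitriol against untreated cells (limma, adjusted p = 0.630). For calcitriol added to estrogen it had -0.04 (adjusted p = 0.944). MAP3K5 (ASK1), the oxidative stress kinase, had 0.10 for calcitriol against untreated cells and 0.15 for calcitriol added to estrogen (adjusted p = 0.814 and 0.402). Between the lines, 4 of the 16 were called higher and 1 lower in GM10861, which is 31.2% called beside 41.8% of all probe sets. They included MAPK13, which encodes p38 delta, at 0.78 (limma, adjusted p = 3.25e-11), and MAP3K20 at -0.48 (adjusted p = 3.54e-08).

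The second list held the effectors of p38 and the substrates of MAPKAPK2. Of 18 listed genes 17 were measured, with a median of 0.01 for calcitriol against untreated cells and -0.03 for calcitriol added to estrogen. By limma 0 of 17 were called in each, and 3 and 2 had an unadjusted p below 0.05, beside 6.55% and 7.94% of all probe sets. Between the lines 7 were called higher and 7 lower in GM10861, 82.4% of the list beside 41.8% of all probe sets. ZFP36, which encodes tristetraprolin, had a log2 change of 0.30 (95% interval 0.09 to 0.52; limma, adjusted p = 0.407) against untreated cells and 0.33 (interval 0.11 to 0.55; adjusted p = 0.270) on estrogen. RPS6KA5 (MSK1), a nuclear kinase downstream of p38 and ERK, had -0.30 (interval -0.48 to -0.13; adjusted p = 0.159) and -0.28 (interval -0.45 to -0.10; adjusted p = 0.253).

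The ZFP36 signal in GM10861 was 6.71, 6.43 and 6.40 with calcitriol, against 6.06, 6.39 and 6.20 untreated, with no overlap, beside 14.0% of all probe sets. In GM10855 it was 6.79, 7.24 and 7.08 with calcitriol, against 6.93, 6.54 and 6.73 untreated, with 1 calcitriol array among the untreated ones. RPS6KA5 was 5.59, 5.71 and 5.63 with calcitriol, against 6.05, 5.91 and 5.93 untreated, in GM10861, and 4.74, 4.78 and 4.81 with calcitriol, against 5.10, 5.06 and 5.04 untreated, in GM10855. The RPS6KA5 calcitriol arrays lay below the untreated arrays in both lines, which is not a call, beside 1.30% of all probe sets kept apart the same way. ZFP36 and RPS6KA5 were named for the smallest p of their list in the calcitriol comparisons. That their arrays stand apart follows in part from that choice, so the shares beside them are not a test. With both agents against estrogen alone, RPS6KA5 was lower without overlap in GM10855, beside 12.3%. In GM10861 it overlapped, at 5.76, 5.96 and 5.70 against 5.75, 6.10 and 5.93. ZFP36 was higher without overlap in GM10861, beside 12.1%. In GM10855 it overlapped, at 6.82, 6.64 and 6.99 against 6.62, 6.66 and 6.31.

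The inflammatory mRNAs with AU-rich elements, whose decay MAPKAPK2 restrains through its substrates, gave 0 calls among 9 measured of 10 listed. Their median log2 change was 0.03 for calcitriol against untreated cells, where 2 had an unadjusted p below 0.05 (limma), beside 6.55% of all probe sets. For calcitriol added to estrogen the median was 0.05, and 1 had an unadjusted p below 0.05 (limma), beside 7.94%. TNF, the cytokine tumour necrosis factor, had a log2 change of 0.20 (95% interval 0.09 to 0.30; limma, adjusted p = 0.102) against untreated cells and 0.09 (adjusted p = 0.742) on estrogen. IL6, an inflammatory cytokine, had 0.03 and 0.27 (limma, adjusted p = 0.994 and 0.310). The IL6 signals, between 3.17 and 4.22, were as low as those of DUSP6 and cannot be separated from background. Between the lines, 5 of the 9 were called, all lower in GM10861, beside 41.8% of all probe sets called and 18.4% lower. They included IL10 at -0.65 (limma, adjusted p = 2.87e-09) and PTGS2 (cyclooxygenase 2) at -0.46 (adjusted p = 1.72e-06).

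Of the other dual-specificity phosphatases, 16 of 16 were measured and 0 were called with calcitriol by limma. For calcitriol against untreated cells, 2 of them had an unadjusted p below 0.05, beside 6.55% of all probe sets. For calcitriol added to estrogen, 2 of them did, beside 7.94%. DUSP16, a phosphatase of JNK and p38, had log2 changes of 0.09 (adjusted p = 0.915) against untreated cells and 0.19 (adjusted p = 0.306) on estrogen. DUSP18 had 0.18 (95% interval 0.04 to 0.32) and 0.15 (adjusted p = 0.598). Between the lines 2 were called higher and 9 lower in GM10861, beside 23.4% and 18.4% of all probe sets.

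On the ERK side, of 19 listed ERK and JNK pathway kinases 13 were measured, with medians of 0.02 and -0.01 for calcitriol against untreated cells and for calcitriol added to estrogen, and by limma 0 were called, while 2 and 1 had an unadjusted p below 0.05. MAPK3, which encodes ERK1, had 0.02 and -0.16 (adjusted p = 0.997 and 0.493), and MAP2K1 (MEK1) had 0.14 and -0.09 (adjusted p = 0.663 and 0.804). Of 22 ERK feedback and immediate early genes 21 were measured, with medians of 0.03 in both comparisons, 0 called by limma and 4 with an unadjusted p below 0.05 in each. The counts of both lists at an unadjusted p below 0.05 stand beside 6.55% and 7.94% of all probe sets. PHLDA1, a gene induced by growth factor signalling, had 0.29 (adjusted p = 0.150) and 0.23 (adjusted p = 0.356), and ETV5, an ERK-responsive transcription factor, had 0.29 (adjusted p = 0.462) and 0.34 (adjusted p = 0.239). Between the lines 3 of the 13 kinases were called higher and 4 lower in GM10861, 53.8% of the list, and 7 of the 21 feedback genes higher and 3 lower, 47.6% of the list, beside 41.8% of all probe sets.

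**Figure D4:**
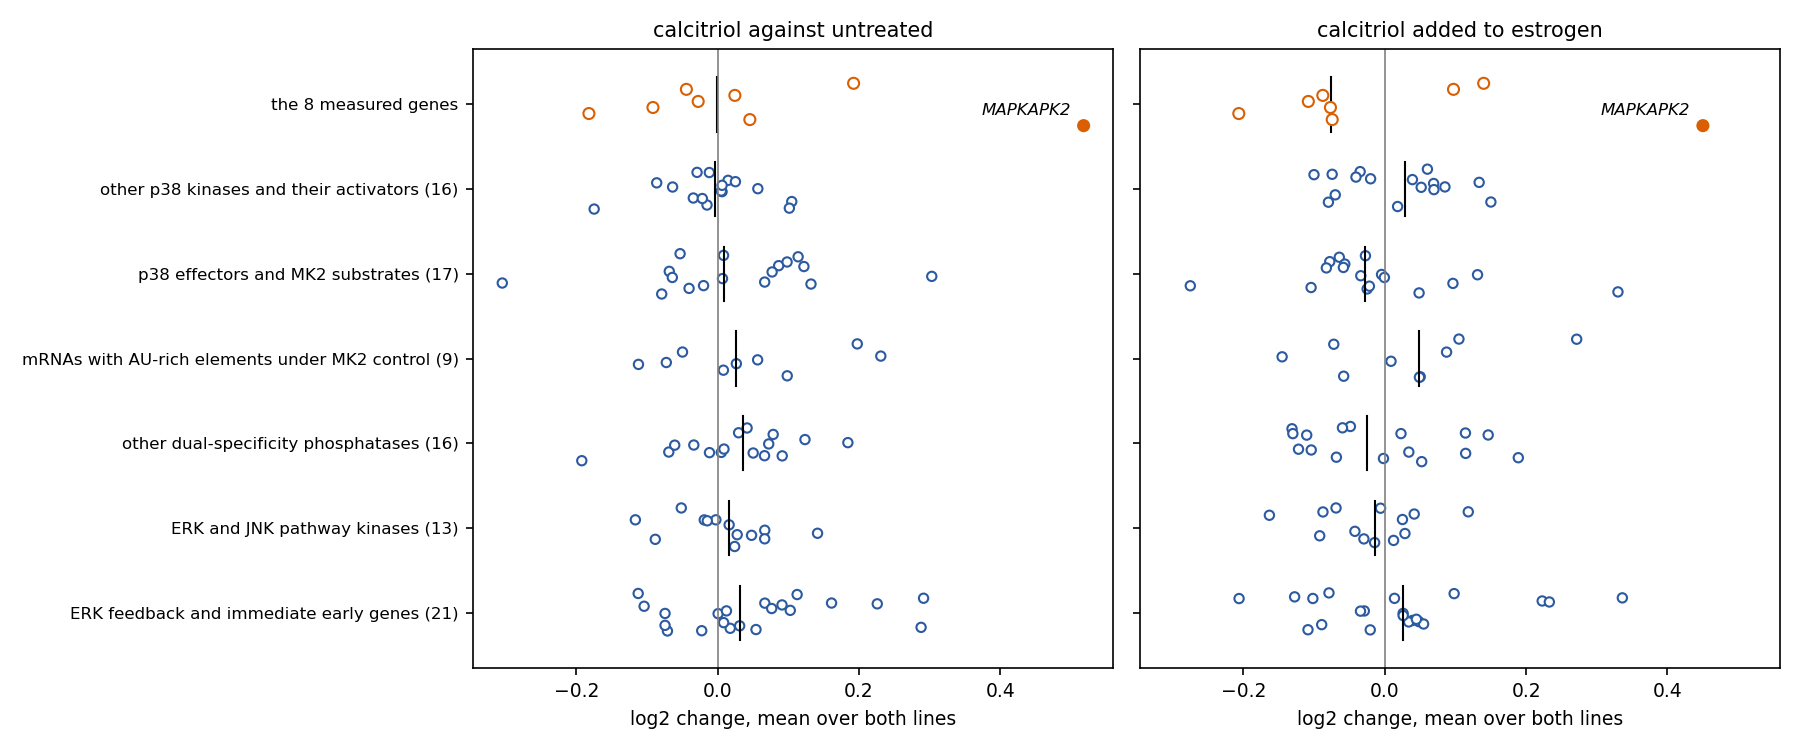
Log2 changes averaged over both lines (horizontal axis) of the 8 measured genes (orange, top row) and of 6 lists of pathway genes (blue, number measured in brackets), for calcitriol against untreated cells and for calcitriol added to estrogen. Each point is 1 gene, filled where called, and black bars are list medians. MAPKAPK2 holds the only filled point in each panel, and the list medians lie between -0.08 and 0.05.

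Genes whose signal followed MAPKAPK2 over the 24 arrays were found after each line's mean was subtracted. The 5 probe sets with the highest Pearson correlation were CD79A (r = 0.923), PLXNB2 (r = 0.910), ITM2C (r = 0.905), CD200 (r = 0.901) and CLMN (r = 0.891). All points share the arrays and the agents, and these correlations carry the calcitriol response itself, so they are given as a description only. Each of the 5 was called higher for calcitriol against untreated cells (limma), beside 0.679% of all probe sets, which follows largely from how they were picked. The log2 changes were 0.85 for CD79A, 0.28 for PLXNB2, 0.70 for ITM2C, 0.33 for CD200 and 0.80 for CLMN. PLXNB2 was not called for calcitriol added to estrogen (0.23; limma, adjusted p = 0.137) or for both agents against untreated cells (0.24; adjusted p = 0.0554), and the other 4 were called in both. The likeness was closer in GM10855, where r ran from 0.932 to 0.981, than in GM10861, where r ran from 0.643 to 0.822, and no test of that difference was made. Of the other measured genes, DUSP10 had r = 0.758 with MAPKAPK2 and MAP2K6 had r = -0.631, while the remaining 5 lay between -0.396 and 0.152.

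**Figure D5:**
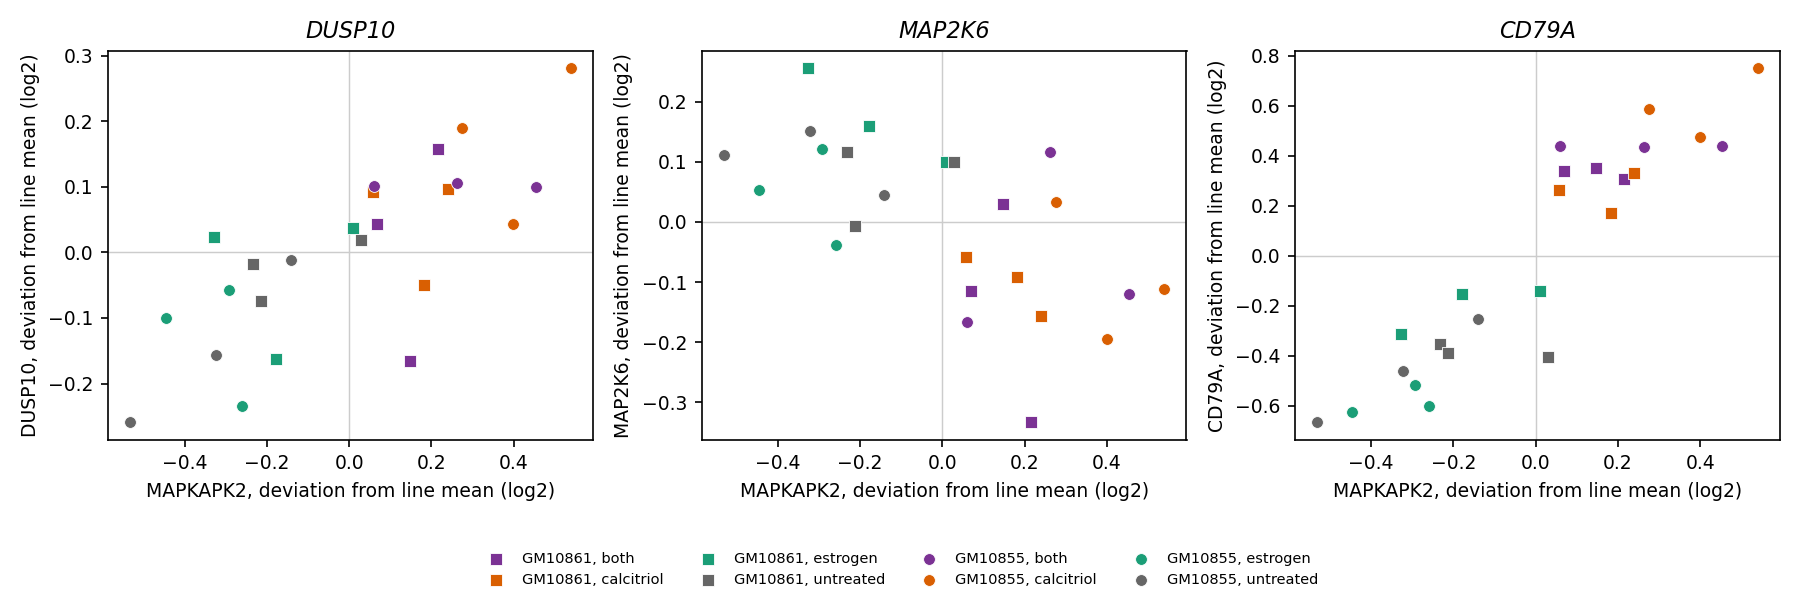
DUSP10, MAP2K6 and CD79A signals (vertical axes) against the MAPKAPK2 signal (horizontal axes) on the 24 arrays, each as the deviation from its line's mean (log2), with squares for GM10861 and circles for GM10855. Arrays with calcitriol or both agents lie to the right in each panel. CD79A is higher on them than on the other arrays of the same line, and so is DUSP10 in GM10855. The DUSP10 values in GM10861 and the MAP2K6 values in both lines overlap.

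Among genes with a probe set of their own, those nearest to MAPKAPK2 in the GRCh38.p14 gene table are DYRK3 and EIF2D on one side and IL10 and IL19 on the other. None was called with calcitriol, beside 0.679% of all probe sets against untreated cells and 0.754% for calcitriol added to estrogen. Their log2 changes for calcitriol against untreated cells were -0.09 for DYRK3, 0.01 for EIF2D, -0.11 for IL10 and 0.09 for IL19, with the lowest adjusted p at 0.878 (limma). For calcitriol added to estrogen they lay between -0.06 and 0.01. All 4 were called between the lines (limma), beside 41.8% of all probe sets. In GM10861 against GM10855, IL10 and IL19, interleukins of the IL-10 family, had log2 differences of -0.65 and -0.76. DYRK3 had -0.34 and EIF2D had 0.13.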

How the data were processed

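Expression was measured on Affymetrix arrays in 24 samples of 2 lymphoblastoid lines. The authors deposited log2 signals per probe set, and per the submitters' processing notes these were made by RMA, run in Expression Console 1.0.1 of Affymetrix. RMA equalises array distributions, which takes out any shift common to most genes and shrinks changes of dim probe sets. Gene symbols came from the platform annotation of the probe sets. limma 3.58.1 in R 4.3.3 was run on the log2 values as deposited, with 1 mean per line and agent over all 24 arrays (16 residual degrees of freedom), and p-values were adjusted by Benjamini-Hochberg over 21214 probe sets. A change was called at an adjusted p below 0.05. Contrasts averaged both lines. The procedure was tested on simulated data. Of planted log2 changes of 0.3, 54% were called for calcitriol against untreated cells and 46% for calcitriol added to estrogen. Of planted changes of 0.5, 86% and 90% were called. A change of 0.3 or less can therefore easily be missed. The number of arrays limits the precision.

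The genes and lists were chosen with earlier results of these data known. Named were all genes of the set, genes called in a list or otherwise the 2 with the smallest p, the 5 probe sets most correlated with MAPKAPK2, its neighbours, and known vitamin D targets. Further list members were named for the differences between the lines, and PAX5 to complete a count, after their values were seen. Alternatives changed the filter, the arrays fitted, the weights and the normalisation, and left out each array in turn.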

Additional observations from a re-analysis of the deposited data

Results flagged for a closer look

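The mean signal of DUSP5, the ERK phosphatase, was higher with estrogen than untreated in GM10861 and lower in GM10855. In GM10861 the estrogen arrays, at 8.32, 8.22 and 8.39, all lay above the untreated mean of 8.20, and in GM10855 the estrogen arrays, at 7.90, 8.02 and 7.87, all lay below the untreated mean of 8.03. The GM10855 untreated arrays, at 8.23, 7.87 and 7.99, overlapped the estrogen arrays. The change in GM10861 minus that in GM10855 was 0.21 ± 0.12 (SE) on the log2 scale. A test of this difference, chosen after the values were seen, did not pass (limma, unadjusted p = 0.104, adjusted p = 0.799).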

How the results depend on the processing

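Over 7 other settings and, per comparison, 12 fits that each left out 1 of its arrays, the log2 change of MAPKAPK2 stayed called for calcitriol against untreated cells (0.51 to 0.52 over settings, 0.47 to 0.57 over left-out arrays, adjusted p up to 0.00548), for both agents against untreated cells (0.42 to 0.46 and 0.39 to 0.49, up to 0.0232) and for calcitriol added to estrogen (0.45 to 0.46 and 0.40 to 0.50, up to 0.0168; limma). Within GM10855, the number of genes of the set called for calcitriol added to estrogen was 1, but 0 with only the arrays compared, and 0 to 1 over left-out arrays; those fits had fewer arrays. Of 1947 recomputed changes of the set, 110 changed sign, 0 of them called before or after. With probe sets under a mean of 5 left out, the genes called between the lines numbered 6, because DUSP6 was not tested. Counts over all probe sets moved more. They ran from 138 to 371 for both agents against untreated cells, 99 to 180 for calcitriol added to estrogen, 0 to 6 for estrogen against untreated cells and 0 to 2 for estrogen added to calcitriol. Within GM10855 they ran from 39 to 152 for calcitriol against untreated cells and from 29 to 229 for calcitriol added to estrogen. Within GM10861 they ran from 16 to 53 and from 12 to 47. For the difference between the lines in these responses they ran from 0 to 10 and from 1 to 4. The cause of these shifts was not tested. No paired analysis was possible because the labels give no replicate numbers. Signal limits DUSP6 most.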
